A study of Mus musculus with 2 samples.

Results

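The Fc receptor genes *Fcgr1*, *Fcgr3*, *Fcgr4*, *Fcgr2b*, *Fcer1g* and *Fcgrt* were read in single cells from mouse heart transplants. The 6 genes were taken as a listed set, and all 6 were present among the 22337 gene symbols of the expression table. Bm12 hearts, which carry an altered MHC class II molecule, were transplanted into C57BL/6 (B6) recipients and collected at postoperative day (POD) 14. Of the donor hearts, 3 were *Il33*-sufficient (labelled BM12 WT, here IL-33+ grafts) and 3 came from *Il33*-deficient Bm12 donors (labelled IL33 KO, here IL-33- grafts), and recipients were B6 in both groups. The mice were male, and the sources used here give no age for them. Cells from each heart were marked with a hashtag antibody after Fc block, an antibody that occupies Fc receptors, and the 6 hearts were pooled into 1 gene expression library and 1 hashtag library.

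Fc receptors bind the constant part of antibodies and pass the signal of antibody-coated targets to immune cells. In the mouse, the activating receptors encoded by *Fcgr1*, *Fcgr3* and *Fcgr4* bind IgG and need the signalling chain encoded by *Fcer1g* to reach the cell surface and to signal. The receptor encoded by *Fcgr2b* carries an inhibitory motif and opposes them, and the balance of the opposing kinds sets the threshold at which macrophages respond to immune complexes. *Fcgrt* encodes the heavy chain of the neonatal Fc receptor, which returns IgG and albumin from endosomes to the blood instead of signalling. In transplants, antibodies against the donor can engage these receptors on macrophages and NK cells.

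On mouse build GRCm38 (GENCODE vM21), 4 of the 6 genes lie on chromosome 1 within 275749 bases. *Fcgr2b* spans 170958617 to 170976547 on the minus strand, *Fcgr4* spans 171018920 to 171029761 on the plus strand, *Fcgr3* spans 171051174 to 171064935 on the minus strand and *Fcer1g* spans 171229572 to 171234365 on the minus strand. The high-affinity receptor gene *Fcgr1* lies on chromosome 3 from 96282909 to 96293969, and *Fcgrt* lies on chromosome 7 from 45092990 to 45103851, both on the minus strand. Antisense genes overlap *Fcgr2b* over 3175 bases and *Fcgrt* over 5331 bases.

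The 130 bases before the RefSeq start (GRCm38.p6, gene strand, read 5′ to 3′) are shown for the 3 activating receptor genes. Those of the inhibitory *Fcgr2b* stand beside them. The levels of all these genes, *Fcgr2b* included, were highest in the same types, in differing order. Capitals mark GAGGAA, the core that the myeloid factor PU.1 prefers, read on the opposite strand as TTCCTC. Both strands were searched for GAGGAA.
Fcgr1, chr3:96293970-96294099, minus strand: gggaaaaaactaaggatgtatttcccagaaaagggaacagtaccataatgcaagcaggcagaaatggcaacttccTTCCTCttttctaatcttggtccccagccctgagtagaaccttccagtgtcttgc
Fcgr3, chr1:171059404-171059533, minus strand: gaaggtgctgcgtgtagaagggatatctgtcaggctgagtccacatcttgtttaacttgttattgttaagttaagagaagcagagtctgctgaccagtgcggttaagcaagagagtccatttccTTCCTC
Fcgr4, chr1:171018796-171018925, plus strand: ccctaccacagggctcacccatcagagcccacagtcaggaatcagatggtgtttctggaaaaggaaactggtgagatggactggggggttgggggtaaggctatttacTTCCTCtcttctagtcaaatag
Fcgr2b, chr1:170976072-170976201, minus strand: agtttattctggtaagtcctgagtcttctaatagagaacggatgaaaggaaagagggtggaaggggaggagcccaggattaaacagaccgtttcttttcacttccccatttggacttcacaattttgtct

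Within the windows of 300 bases (250 before to 50 after the start), the GAGGAA match began 55 bases before the start of *Fcgr1*, 22 before that of *Fcgr4* and 6 before that of *Fcgr3* (in the first of its overlapping RefSeq windows). These letters were not in the windows of *Fcgr2b*, *Fcer1g* and *Fcgrt*. Of all 32851 mouse windows of this length, 28.3% hold GAGGAA. The printed bases of *Fcgr3* and *Fcgr2b* lie inside the GENCODE spans of these genes, which begin further upstream than the RefSeq starts. Distances to the start thus depend on the annotation used. A match is a description of these letters and not a known site.

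The files hold 4441 cells of 14 types annotated by the authors, between 230 and 1666 cells per heart, with 908131 to 7012927 unique molecular identifiers (UMIs, 1 per captured transcript) per heart. Levels are mean CPM (UMIs divided by the total UMIs of the cell, on the usual CPM scale) over the cells of a type in a heart. The 3′ kit counts transcript ends, so CPM is not divided by transcript length. *Il33* (chromosome 19, 29925114 to 29960718), the gene removed from the donors, was read first and stood at 24.3, 0 and 50.7 CPM in fibroblasts of IL-33+ replicates 1 to 3 and at 32.6, 73.8 and 16.1 CPM in IL-33- replicates 1 to 3. The counted transcript end thus did not separate the grafts, with 9, 3 and 5 UMIs in the IL-33- hearts, and IL-33+ and IL-33- mean throughout the hearts labelled so. In macrophages (*C1qa* at 1261 CPM), monocytes, NK cells, B cells, cDCs and fibroblasts, each checked marker of the type ranked at 1 or 2 among the 14 types. NKT cells ranked at 7 or 8 for each of 5 T cell markers, with *Cd3e* at 70.2 CPM against 568 CPM in Tem/eff cells. Markers of both T cells and macrophages, at least 2 of each, were found in 51 of the 83 unconventional T cells (61.4%). Of the 204 Mo-DCs, 46 (22.5%) held UMIs of at least 4 of 8 neutrophil markers. Monocytes numbered 5 in IL-33+ replicate 2 and 7 in IL-33- replicate 2, and Mo-DCs 4 and 7, so these hearts carry few cells in the values below.

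The 6 genes divided the graft cells along different lines. The 3 activating receptors and *Fcgr2b* were highest in macrophages, monocytes, Mo-DCs and unconventional T cells. *Fcer1g* was about as high in NK cells as in macrophages, with NKT cells below them, and *Fcgrt* led in fibroblasts. The types were made by clustering the same cells on their genes, so levels across types are a description without a test, supported by the count of hearts in which a type was above another.

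**Figure D1:**
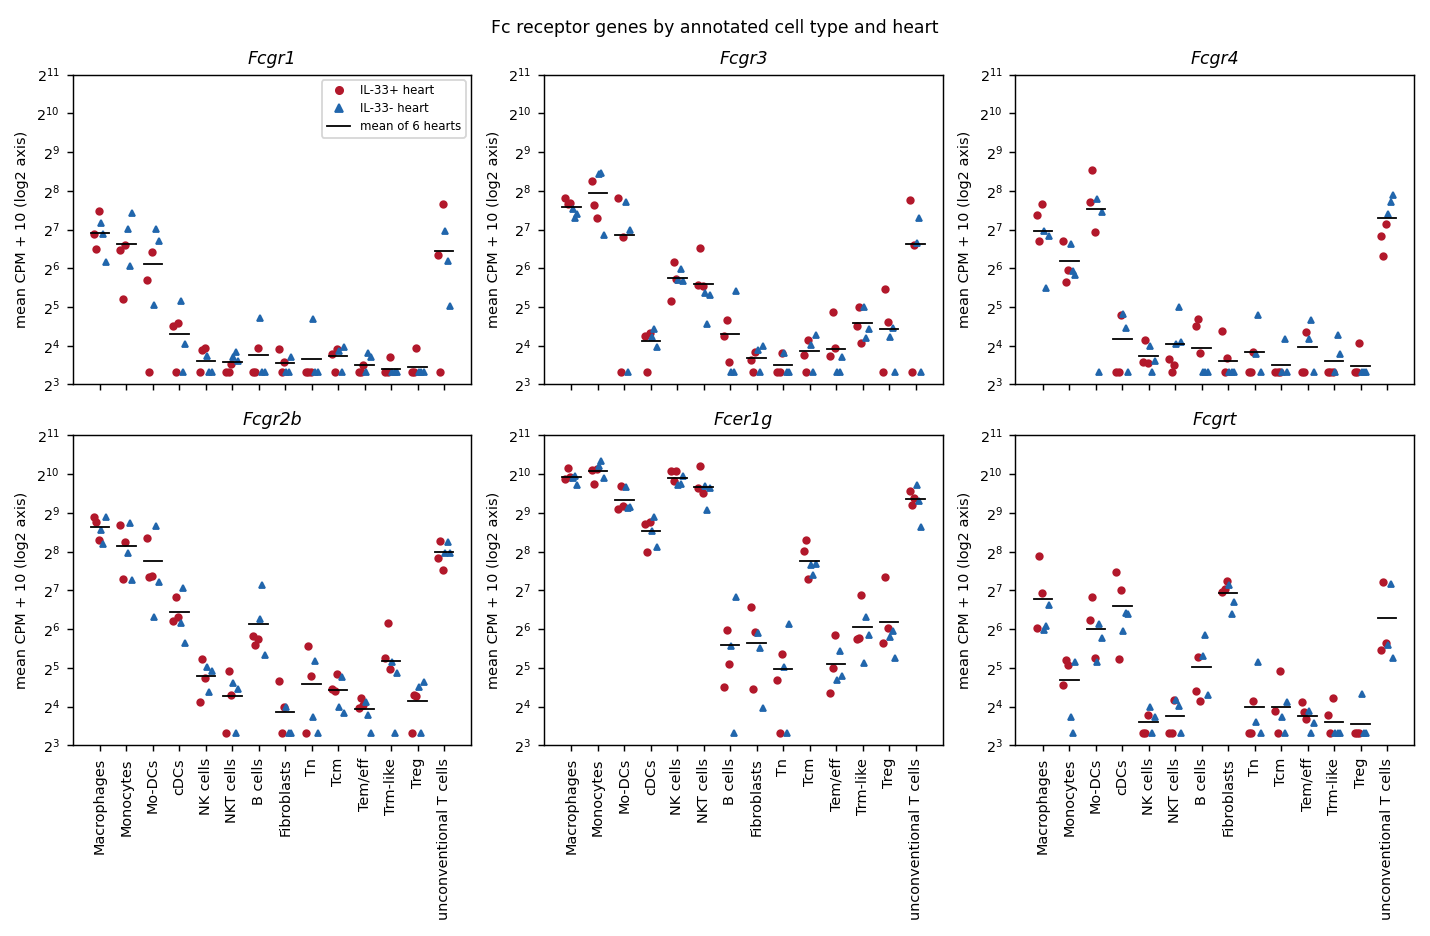
Mean CPM plus 10 on a log2 axis for each Fc receptor gene, by annotated cell type. Each point is a heart (circles IL-33+, triangles IL-33-) and the bar is the mean of 6 hearts. *Fcer1g* is high in macrophages (965 CPM), NK cells (952 CPM) and NKT cells (803 CPM). The 4 Fc gamma receptor genes drop from Mo-DCs to cDCs and are higher again in unconventional T cells. *Fcgrt* is at 113 CPM in fibroblasts.

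*Fcgr1*, the high-affinity IgG receptor, averaged 110 CPM in macrophages (SD 38.0, n = 6 hearts) and 88.4 CPM in monocytes (SD 47.2). Macrophages were above monocytes in 5 of 6 hearts, and the ranges overlapped. Unconventional T cells followed at 77.1 CPM (SD 68.5), Mo-DCs at 59.1 CPM (SD 45.3) and cDCs at 9.79 CPM. In NK cells it averaged 2.27 CPM from 9 UMIs, and 3 of 6 hearts were at 0 there. Macrophages held 354 of the 637 *Fcgr1* UMIs in all cells (55.6%), although they were 9.66% of cells.

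*Fcgr3*, a low-affinity activating receptor, was highest in monocytes at 235 CPM (SD 102, n = 6), followed by macrophages at 181 CPM (SD 25.1). Monocytes were above macrophages in 3 of 6 hearts, so the order of this pair was not settled by the hearts. In NK cells, where it encodes the receptor for antibody-dependent killing, *Fcgr3* averaged 44.2 CPM (SD 11.95). Macrophages exceeded NK cells in 6 of 6 hearts, by 4.08-fold in means, and monocytes in 6 of 6, by 5.33-fold. A *Fcgr3* UMI was found in 96 of 931 NK cells (10.3%, exact 95% interval 8.43% to 12.4%, median 2711 UMIs per cell) against 2 of 243 Tn cells (0.823%, interval 0.0998% to 2.94%, median 2764). At 1500 UMIs per cell the shares were 6.22% and 0.203%. NKT cells were close to NK cells, at 38.6 CPM (SD 23.01), and NK cells were above them in 4 of 6 hearts.

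*Fcgr4*, which binds IgG2 subclasses, averaged 176 CPM in Mo-DCs (SD 120, n = 6), 148 CPM in unconventional T cells (SD 59.6), 116 CPM in macrophages (SD 53.9) and 62.4 CPM in monocytes (SD 23.3). Per heart, Mo-DCs were at 199, 364 and 113 CPM in IL-33+ replicates 1 to 3 and at 212, 0 and 166 CPM in IL-33- replicates 1 to 3. The highest value rests on 4 cells and the 0 on 7 cells. From UMIs summed over hearts, macrophages were at 138 CPM, Mo-DCs at 136 CPM and unconventional T cells at 132 CPM. Unconventional T cells, 1.87% of cells, held 110 of the 737 *Fcgr4* UMIs (14.9%), against 419 in macrophages, 81 in monocytes and 67 in Mo-DCs. Mo-DCs were above unconventional T cells, and these above macrophages, in 3 of 6 hearts each. Monocytes were above cDCs (7.97 CPM) in 6 of 6 hearts with no overlap of ranges.

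The inhibitory *Fcgr2b* averaged 387 CPM in macrophages (SD 79.9, n = 6), the highest level of the 4 Fc gamma receptor genes in any type on this scale. Macrophages were above monocytes (274 CPM, SD 119) in 5 of 6 hearts. Unconventional T cells were at 245 CPM, Mo-DCs at 205 CPM and cDCs at 77.2 CPM. In B cells, which are known to carry this receptor as a brake on the B cell receptor, it averaged 59.7 CPM (SD 37.2) from 39 UMIs, and macrophages were above B cells in 6 of 6 hearts. An *Fcgr2b* UMI was found in 35 of 286 B cells (12.2%, exact interval 8.67% to 16.6%, median 2292 UMIs), against 37 of 931 NK cells (3.97%, 2.81% to 5.44%, median 2711) and 7 of 243 Tn cells (2.88%, 1.17% to 5.84%).

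*Fcer1g*, the common signalling chain, had 10162 UMIs, more than the other 5 genes combined. It averaged 1080 CPM in monocytes (SD 159, n = 6), 965 CPM in macrophages (SD 95.2) and 952 CPM in NK cells (SD 105). Macrophages exceeded NK cells in 3 of 6 hearts. In NKT cells it averaged 803 CPM (SD 207), 14.2-fold the mean of Trm-like cells and above them in 6 of 6 hearts. A UMI was found in 319 of 347 NKT cells (91.9%, exact interval 88.5% to 94.6%), close to the 832 of 931 NK cells (89.4%, 87.2% to 91.3%), and in 15 of 243 Tn cells (6.17%, 3.50% to 9.98%). Tcm cells stood between these groups with 208 CPM (SD 61.0), above Tem/eff cells (24.5 CPM) in 6 of 6 hearts. Of Tcm cells 44.7% had a UMI (119 of 266, exact interval 38.7% to 50.9%, median 4039 UMIs per cell), against 11.6% of Tem/eff cells (38 of 327, 8.36% to 15.6%, median 5693). At 1500 UMIs per cell the shares were 23.9% and 3.27%.

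*Fcgrt* averaged 113 CPM in fibroblasts (SD 24.9, n = 6), 98.9 CPM in macrophages (SD 66.5) and 86.2 CPM in cDCs (SD 50.8). Fibroblasts were above macrophages in 5 of 6 hearts and above cDCs in 4 of 6, and macrophages were above cDCs in 3 of 6. In monocytes it was 15.6 CPM from 14 UMIs, unlike the other 5 genes, for which monocytes were among the 4 highest types. Fibroblasts held 37.5% of the 802 *Fcgrt* UMIs, macrophages 30.3% and cDCs 16.3%. The share from fibroblasts ran from 8.70% to 56.1% over hearts, with between 4 and 270 fibroblasts in a heart.

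The unconventional T cells also held all 6 genes, with *Fcgr2b* at 245 CPM (SD 46.6, n = 6), *Fcgr4* at 148 CPM, *Fcer1g* at 642 CPM and *Fcgrt* at 68.6 CPM. Without the cells of both T cell and macrophage markers, 32 cells in 5 hearts were left, none of them in IL-33+ replicate 2. In those 5 hearts *Fcgr2b* averaged 233 CPM over all unconventional T cells (SD 42.1) and 235 CPM in the cells left (SD 47.5). *Fcgr1* averaged 92.6 CPM and 100.1 CPM, and *Fcgr4* 164 CPM and 206 CPM, in the same order. These differences between all cells and the cells left were smaller than the spread between hearts. The filter did not remove cells with macrophage markers and under 2 T cell markers. Over all 83 unconventional T cells, 5.20 macrophage markers were found per cell, against 4.98 in annotated macrophages. Their median depth was 10175 UMIs against 6605. Whether the receptor transcripts come from macrophages within this type was not tested.

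Within macrophages, monocytes, Mo-DCs and cDCs, the 4 Fc gamma receptors took different shares of their summed UMIs. *Fcgr2b* made up 47.2% of the 2614 receptor UMIs in macrophages (exact interval 45.3% to 49.1%), with a range of 37.8% to 57.9% over hearts, and 68.2% of 110 UMIs in cDCs (58.6% to 76.7%). *Fcgr3* made up 35.5% of 839 UMIs in monocytes (32.3% to 38.9%) and 23.2% in macrophages (21.6% to 24.9%). In NK cells *Fcgr3* was 65.0% of 163 UMIs (57.2% to 72.3%) and in NKT cells 67.0% of 103 (57.0% to 75.9%). In B cells *Fcgr2b* was 78.0% of 50 UMIs (64.0% to 88.5%). These intervals cover counting error alone.

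**Figure D2:**
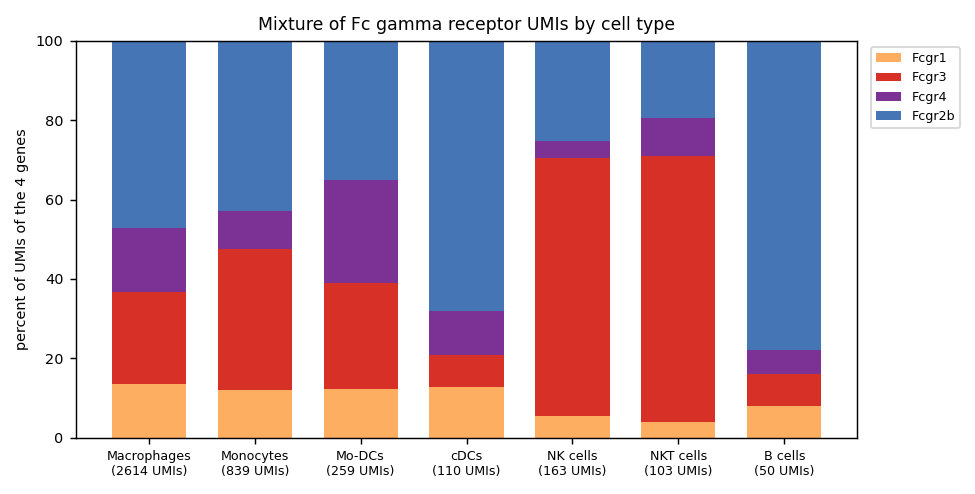
Share of each of the 4 Fc gamma receptor genes among their summed UMIs, as stacked bars adding to 100 percent, for 7 annotated types. The number of UMIs stands under each bar. *Fcgr2b* takes 47.2% in macrophages, 68.2% in cDCs and 78.0% in B cells, and *Fcgr3* takes 65.0% in NK cells.

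Most macrophages and monocytes held both activating and inhibitory transcripts. Of 429 macrophages, 273 (63.6%) had UMIs of *Fcgr2b* and of at least 1 activating receptor, 70 had activating receptors alone, 55 had *Fcgr2b* alone and 31 had neither. Of 154 monocytes, 107 (69.5%) had both, but only 30 of 204 Mo-DCs (14.7%) and 13 of 171 cDCs (7.60%) did. Each kind was common by itself, with *Fcgr2b* in 328 macrophages (76.5%) and 116 monocytes (75.3%). An activating receptor was found in 343 macrophages and 140 monocytes. Whether cells with both exceed what these separate shares give was not tested. Of the 343 macrophages with an activating receptor, 334 (97.4%) also had an *Fcer1g* UMI, close to the 415 of all 429 macrophages (96.7%). In Mo-DCs this was 66 of 96 cells (68.8%) beside 131 of all 204 (64.2%), at a median of 2310 UMIs per cell against 6605 in macrophages. In cDCs it was 25 of 26 beside 129 of all 171 (75.4%).

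The ratio of activating (*Fcgr1*, *Fcgr3* and *Fcgr4* summed) to inhibitory (*Fcgr2b*) transcripts was taken per heart on the log2 scale after adding 10 CPM to each side. In macrophages it was 0.03, -0.21 and 0.83 in IL-33+ replicates 1 to 3 and 0.19, 0.04 and -0.52 in IL-33- replicates 1 to 3. Both groups spread around 0, which is an equal amount of each kind, and they overlapped. The mean was 0.22 (SD 0.54, n = 3) in IL-33+ and -0.10 (SD 0.37, n = 3) in IL-33- grafts (2-sided exact permutation p = 0.6, where 0.1 is the smallest possible), and without IL-33+ replicate 3 the difference fell from 0.31 to 0.0094. With *Fcgr3* and *Fcgr4* alone as activating, the macrophage means were -0.19 in IL-33+ and -0.59 in IL-33- grafts (exact permutation p = 0.2). The reading as equal amounts thus depends on which genes are summed. In monocytes, with all 3 activating genes summed, the mean was 0.31 (SD 0.40) in IL-33+ and 0.77 (SD 0.59) in IL-33- grafts (exact permutation p = 0.3). In Mo-DCs the grafts differed by 0.12 (exact permutation p = 1) and in cDCs by -0.65 (exact permutation p = 0.6), IL-33+ minus IL-33-, with 4 to 9 cells in a heart of each group. With 1 or 50 CPM added in place of 10, the cDC difference was -1.57 or -0.25, and with *Fcgr3* and *Fcgr4* alone as activating the Mo-DC difference was 1.33. Monocytes were above cDCs in this ratio in 6 of 6 hearts, with means of 0.54 and -1.45 (the cDC mean was -2.19 with 1 CPM added and -0.76 with 50).

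The study asked how graft IL-33 changes the cells of the transplant, so each gene was compared between IL-33+ and IL-33- grafts within each type. No Fc receptor gene passed the threshold in any type. Of 84 pairs of gene and type, 52 had enough UMIs to be tested (at least 10 UMIs and a UMI in at least 3 hearts). With limma and Benjamini-Hochberg adjustment over all genes of the type, 0 of 52 were called, and over all genes and types 0.00884% were. Before adjustment 3 of the 52 (5.77%) were at or under 0.05, against 4.71% of all genes and types. These were *Fcgr4* in macrophages and *Fcgr3* and *Fcgr4* in NKT cells. The groups did not overlap with IL-33+ higher in 2 pairs, against a background of 4.87% of all genes and types, and with IL-33+ lower in 2 pairs, against 4.94%. The log2 fold change from limma was above 0 in 30 of the 52 and below 0 in 22. The matching share over all genes and types was not taken.

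**Figure D3:**
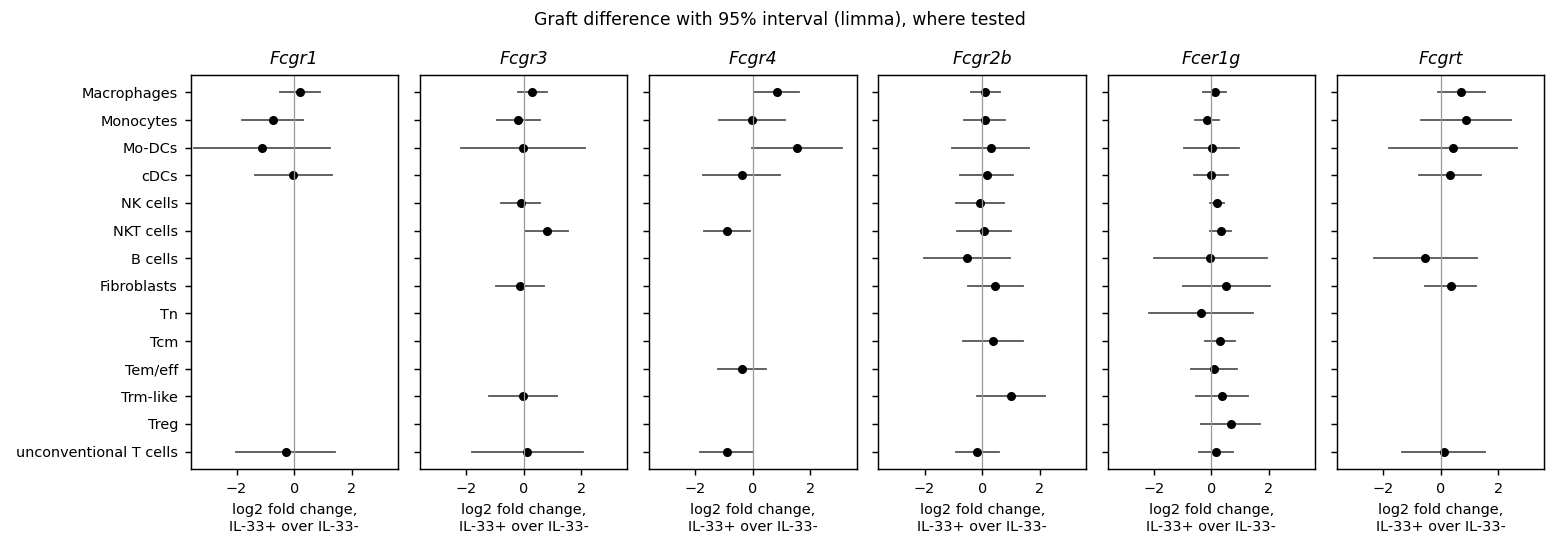
Log2 fold change of IL-33+ over IL-33- grafts with its 95% interval from limma, for each Fc receptor gene in each type where it was tested. Dots are estimates and lines are intervals, and all but 3 of the 52 lines cross 0. The narrowest line is that of *Fcer1g* in NK cells, from -0.05 to 0.43.

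In macrophages, *Fcgr4* was at 157, 94.6 and 191 CPM in IL-33+ replicates 1 to 3 and at 114, 34.6 and 103 CPM in IL-33- replicates 1 to 3. The second IL-33+ heart, with 10 macrophages, lay below 2 of the IL-33- hearts, and the lowest value, in IL-33- replicate 2, rests on 4 UMIs. With limma the log2 fold change was 0.83 and its 95% interval 0.06 to 1.60 (unadjusted p = 0.0369, adjusted p = 0.987), and 4.04% of the genes tested in macrophages had an unadjusted p of at most 0.05. The log2 fold change was 0.36 without IL-33- replicate 2 and between 0.63 and 1.10 without each other heart. *Fcgr3* was at 216, 192 and 194 CPM in IL-33+ grafts and at 175, 148 and 158 CPM in IL-33- grafts. Each IL-33+ heart was above each IL-33- heart, as it was for 3.82% of the 9682 genes tested in macrophages, and limma gave a log2 fold change of 0.31 with a standard error of 0.24 (adjusted p = 0.987).

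*Fcgrt* in macrophages was at 55.2, 226 and 113 CPM in IL-33+ and at 53.3, 57.7 and 88.7 CPM in IL-33- grafts. The value of 226 CPM comes from the 10 macrophages of IL-33+ replicate 2, and the groups overlapped (log2 fold change 0.72, standard error 0.39, adjusted p = 0.987 from limma). Without that heart it was 0.26, without IL-33+ replicate 1 it was 1.18, and limma-voom on all hearts gave 0.28. For *Fcgr1* the values were 107, 80.6 and 168 CPM against 135, 108 and 61.1 CPM, and the order of the grafts was mixed. *Fcgr2b* was at 470, 424 and 307 CPM against 369, 284 and 466 CPM. *Fcer1g* was at 922, 1129 and 964 CPM against 951, 987 and 839 CPM. The log2 fold changes of these 3 genes were 0.21, 0.11 and 0.12, with limma intervals of -0.49 to 0.91, -0.39 to 0.61 and -0.28 to 0.51.

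In monocytes, *Fcgr1* was at 79.4, 27.0 and 86.3 CPM in IL-33+ and at 120, 56.8 and 161 CPM in IL-33- grafts. The lowest value was that of the 5 monocytes of IL-33+ replicate 2, and the groups overlapped (log2 fold change -0.74, standard error 0.53, adjusted p = 0.965 from limma). Without that heart it was -0.30, and without IL-33- replicate 2 it was -1.13. *Fcgr3* was at 297, 187 and 147 CPM against 337, 339 and 105 CPM. *Fcgr2b* was at 400, 148 and 297 CPM against 238, 417 and 145 CPM, so that hearts of each graft were both high and low. The log2 fold changes were -0.19 for *Fcgr3*, 0.09 for *Fcgr2b*, -0.03 for *Fcgr4*, -0.15 for *Fcer1g* and 0.88 for *Fcgrt*, which had 14 UMIs in monocytes (2.15 with 1 CPM added and 0.28 with 50). Without the hearts of under 10 monocytes, that of *Fcgr2b* was 0.85 (2 hearts against 2, unadjusted p = 0.0166, adjusted p = 0.960 from limma).

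**Figure D4:**
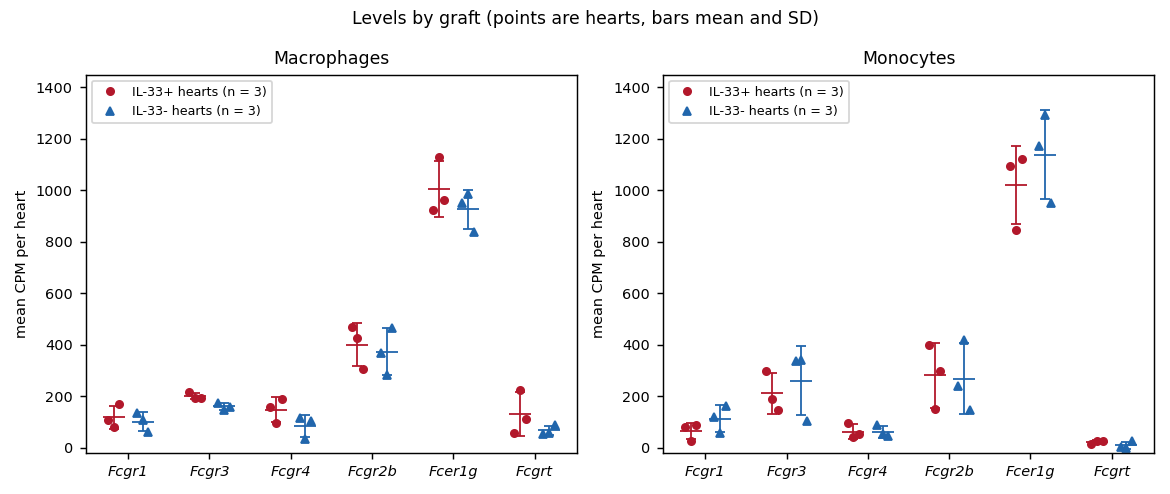
Mean CPM per heart of the 6 genes in macrophages (left) and monocytes (right), on linear axes. Points are hearts, and the bars give mean and SD over 3 hearts of a graft. *Fcgr3* in macrophages, 192 to 216 CPM in IL-33+ and 148 to 175 CPM in IL-33- hearts, is the gene here whose groups do not overlap.

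The graft difference of each gene was compared between macrophages and monocytes of the same hearts. With limma on the difference per heart, 0 of 6 genes were called, and so were 0% of the 7104 genes tested in both types (294 were at or under 0.05 before adjustment). The difference of log2 fold changes, macrophages minus monocytes, was 0.95 for *Fcgr1* (95% interval -0.56 to 2.46, adjusted p = 0.930), 0.86 for *Fcgr4* (-0.63 to 2.34, adjusted p = 0.930) and 0.49 for *Fcgr3* (-0.78 to 1.76, adjusted p = 0.941). For *Fcer1g* it was 0.27, for *Fcgr2b* 0.01 and for *Fcgrt* -0.16. The intervals admit more than a doubling either way for *Fcgr2b* and *Fcgrt*.

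In NK cells, *Fcer1g* was at 1073, 905 and 1066 CPM in IL-33+ and at 832, 852 and 983 CPM in IL-33- grafts. The groups overlapped in a single pair of hearts, and limma gave a log2 fold change of 0.19 with a 95% interval of -0.05 to 0.43 (adjusted p = 0.864). In NKT cells, *Fcgr3* was at 37.7, 82.1 and 36.7 CPM in IL-33+ and at 31.3, 13.8 and 29.7 CPM in IL-33- grafts, with no overlap (log2 fold change 0.80, standard error 0.37, unadjusted p = 0.0400, adjusted p = 0.924 from limma, and 0.48 without IL-33+ replicate 2). *Fcgr4* in NKT cells had 10 UMIs in all and a log2 fold change of -0.89 (unadjusted p = 0.0320, adjusted p = 0.924 from limma), which was -2.47 with 1 CPM added and -0.26 with 50. *Fcgr2b* in B cells was at 47.1, 38.4 and 43.9 CPM in IL-33+ and at 66.9, 131 and 30.3 CPM in IL-33- grafts, where the highest value rests on 4 cells (log2 fold change -0.52, adjusted p = 0.900 from limma, and -0.07 without that heart). *Fcgrt* in fibroblasts was at 115, 122 and 141 CPM against 131, 73.8 and 93.7 CPM, which overlapped (log2 fold change 0.34, adjusted p = 0.998 from limma).

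The share of cells with a UMI was compared between grafts at 1500 UMIs per cell in the same 52 pairs. In 5 of the 52 the grafts did not overlap, which gives an exact permutation p of 0.1, the smallest that 3 hearts against 3 allow. The same held for 9.82% of all genes and types, in either direction, so the count was near the background. The smallest adjusted value over the 52 was 0.975. Counting all UMIs, the NK cell shares of *Fcer1g* differed by 1.77 percentage points, IL-33+ higher, and the macrophage shares of *Fcgr3* by 0.996. At the common depth, in macrophages 24.3% (SD 1.70, n = 3) of cells had *Fcgr3* in IL-33+ and 20.9% (SD 1.31, n = 3) in IL-33- grafts. In NK cells 75.0% (SD 2.06) against 68.7% (SD 2.26) had *Fcer1g*, both pairs with an exact permutation p of 0.1. The other 3 were *Fcgr3* and *Fcgr4* in NKT cells and *Fcgr4* in unconventional T cells, the last at 13.6% (SD 3.51) against 23.7% (SD 5.03).

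Several annotated types were then divided by markers that are not Fc receptor genes, and levels were compared within hearts by a 2-sided exact sign-flip permutation test over the hearts with at least 3 cells of both kinds. These splits were chosen after the values were seen, and 21 pairs of gene and split with at least 10 UMIs were tested. The smallest adjusted p was 0.328, so no split passed a correction over the family. In NKT cells, *Fcer1g* was higher in the 249 cells with under 2 T cell markers than in the 98 with 2 or more, in 6 of 6 hearts. Means were 925 and 478 CPM, and the log2 difference was -1.07 (SD 0.53, n = 6 hearts, exact permutation p = 0.0312, the smallest possible). The cells with T cell markers were deeper, at a median of 7262 against 5397 UMIs.

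In Tcm cells the 96 cells with at least 2 of 6 NK cell markers had more *Fcer1g* than the other 170, in 6 of 6 hearts, with means of 266 and 174 CPM (log2 difference 0.65, SD 0.60, n = 6, exact permutation p = 0.0312). In IL-33- replicate 1 the values were nearly equal, at 190.7 and 190.2 CPM. In cDCs, cells with a UMI of *Cd209a*, a marker of type 2 cDCs, had 625 CPM of *Fcer1g* against 245 CPM in the rest, in 5 of 5 hearts (exact permutation p = 0.0625, the smallest possible). The same cells had 162 CPM of *Fcgr2b* against 27.4 CPM and 145 CPM of *Fcgrt* against 52.1 CPM, each higher in 4 of 5 hearts (both exact permutation p = 0.125).

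**Figure D5:**
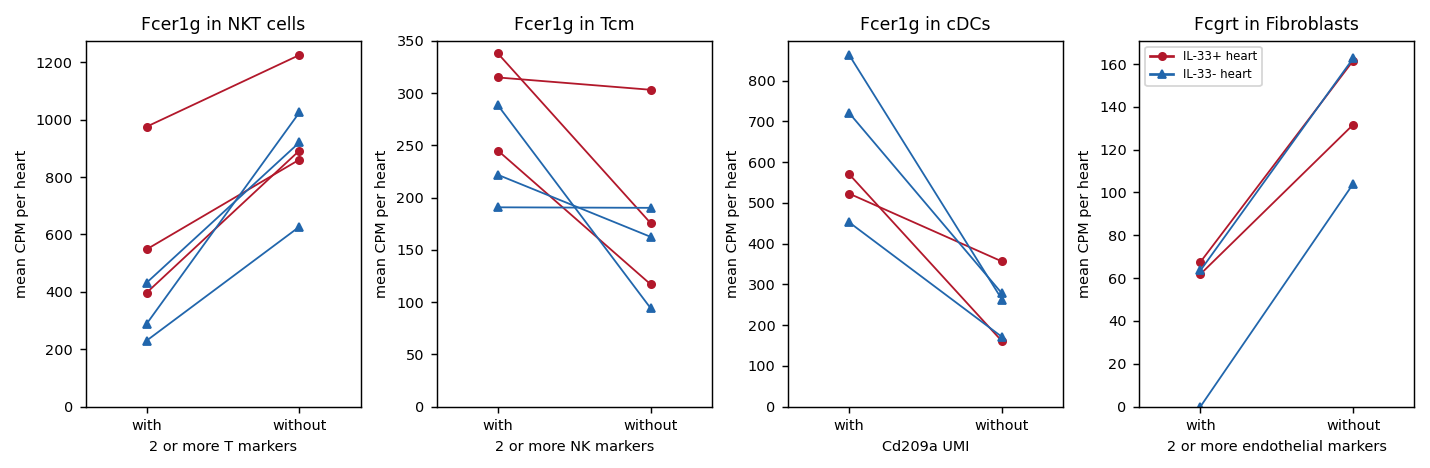
Mean CPM per heart in cells with and without a marker set, with lines joining the 2 values of a heart (circles IL-33+, triangles IL-33-). *Fcer1g* was lower in NKT cells with T cell markers in 6 hearts, higher in Tcm cells with NK cell markers in 6 and in *Cd209a* cDCs in 5, and *Fcgrt* was lower in fibroblasts with endothelial markers in 4.

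Among Mo-DCs, the 46 cells with at least 4 neutrophil markers had no *Fcgr1* UMI and no *Fcgrt* UMI, against 32 and 21 UMIs in the other 158 cells. In the 3 hearts with both kinds, *Fcer1g* was at 818, 793 and 1216 CPM in the neutrophil-marker cells and at 511, 505 and 496 CPM in the rest. *Fcgr3* was likewise higher there in 3 of 3 hearts (means of 435 and 101 CPM), at 780, 111 and 414 CPM against 163, 100 and 40.7 CPM. The value of 780 CPM rests on 3 cells of IL-33+ replicate 1, and in IL-33+ replicate 3 the values were close. *Fcgr4* (means of 95.8 and 191 CPM) and *Fcgr2b* (106 and 189 CPM) were higher there in 1 of 3 hearts each. With 3 hearts the exact permutation p cannot go below 0.25. Among fibroblasts, *Fcgrt* was at 140 CPM in cells with under 2 endothelial markers and at 48.3 CPM in the 81 cells with 2 or more, lower in 4 of 4 hearts (exact permutation p = 0.125, the smallest possible). The 81 cells had 31 *Fcgrt* UMIs.

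The other genes of the pathway were taken as 5 lists, and no listed gene was called between grafts in any type by limma. Of 26 ITAM adaptors and kinases, which carry the signal of activating receptors, 26 were tested in macrophages and 0 were called, with a median log2 fold change of -0.09 beside -0.05 for all genes. *Card9* (0.74) and *Btk* (0.53) had the highest log2 fold changes, and *Src* (-0.85) was among the lowest.

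Of 9 genes listed as inhibitory phosphatases and adaptors, 9 were tested in macrophages and 0 called, with a median of 0.03. *Dok2* (0.78) and *Dok1* (0.64) had the highest log2 fold changes and *Ptpn6* (-0.49), which encodes the phosphatase SHP-1, and *Ptpn11* (-0.42) the lowest. Of 10 receptors that also use the *Fcer1g* chain, 7 were tested and 0 called, with a median of -0.19. *Cd300lf* (0.25) and *Pira2* (0.10) were highest and the C-type lectin genes *Clec4n* (-0.73) and *Clec4d* (-0.57) lowest.

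Of 12 other immunoglobulin receptors, 4 were tested in macrophages and 0 called (median -0.06). These were *Fcrls* (0.23), *Trim21* (-0.04), *Fcrla* (-0.41) and *B2m* (-0.09), the light chain of the neonatal Fc receptor. Of 8 immunoglobulin heavy chain genes, 3 had enough UMIs in macrophages and 0 were called, with log2 fold changes of -0.18 for *Ighm*, -0.41 for *Ighg1* and -0.68 for *Igha*.

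Over the 14 types, patterns were compared by Pearson's r of log2(mean CPM + 10) among 9469 genes, as a description of points that share hearts and clustering. *Fcer1g* was most like *Tyrobp* (r = 0.968), the other ITAM adaptor of myeloid and NK cells, then *Tm6sf1*, *Npc1*, *Cd244a* and *Ncf4* (0.915 to 0.925). *Fcgr1* was most like *Tarm1* (0.991), *Clec4a2*, *Igsf6*, *Csf1r* and *Clec4a1*, and *Fcgr4* like *Trem2* (0.973), *Atp6v1c1*, *Clec4a2*, *C5ar1* and *Cd300ld*. *Fcgr2b* was like *Clec12a* (0.973), *Ctss*, *Il10rb* and *Lrrc25*, and *Fcgr3* like *Adssl1* (0.937), *Slc16a10*, *Osm*, *Card19* and *Igsf6*. *Fcgrt* was most like *Marcks* (0.925), *Cd63*, *Rab3il1*, *Eif1a* and *Nrp2*. Among the members, *Fcgr1* and *Fcgr4* had the highest r (0.955) and *Fcer1g* and *Fcgrt* the lowest (0.263).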

How the data were processed

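Cells were isolated from digested grafts on a density gradient, hashed and sequenced with a 10x Genomics 3′ kit. Per the submitters' processing notes, Cell Ranger (build mm10) and Partek Flow 10.0.23.0425 were used. The authors deposited expression as log2(CPM + 1) for each cell, with its hashtag and cell type, after limits on counts and genes meant to remove doublets, and no further doublet caller was run. The logarithm was undone, and UMIs were recovered from the value of 1 UMI in each cell: 99.9% of low values, and 100% of those of the 6 genes, lay within 0.05 of a whole number.

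The heart was the replicate (n = 3 per graft); all cells were captured as 1 pool. Graft groups come from the hashtag labels, which matched the graft label in every cell. Mean CPM plus 10 was compared on the log2 scale with limma 3.58.1 (R 4.3.3, eBayes with a trend), so folds of low genes are understated. Genes needed at least 10 UMIs and a UMI in at least 3 hearts and were called at an adjusted p of 0.05 or less. Alternatives were other pseudocounts (1 and 50), no filter, CPM of summed UMIs, limma-voom on the recovered UMIs, leaving out each heart and leaving out cells with markers of another type. The fit was also run on simulated counts with large changes in well-counted genes and a fixed spread between hearts. That run does not measure which differences can be found in these hearts. Shares were taken at 1500 UMIs per cell by the hypergeometric expectation, and no cell was shallower. Python 3.11.15, numpy 2.4.6, pandas 2.3.3, scipy 1.17.1 and matplotlib 3.10.9 were used. Named pathway genes were those called in any type and, in macrophages, the 2 highest and 2 lowest of each list, apart from a result that is not reported here. The members and lists were chosen with earlier results of these data known. Promoter sequences were matched by symbol for 6 of 6 genes. *Fcgr2b* and *Fcgr3* resemble each other in sequence, and how reads shared between related or antisense genes were counted is not given in the sources used here.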

Additional observations from a re-analysis of the deposited data

How the results depend on the processing

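No Fc receptor gene was called in any type under any alternative run, and the smallest adjusted p over all of them was 0.336 (limma). Of 330 alternative values for 21 graft differences of single genes, 25, in 10 of the differences, reversed direction and the others kept it. The cause was not tested. All log2 values here are IL-33+ minus IL-33-. With CPM of summed UMIs, *Fcgr4* in monocytes was 0.041, *Fcgr3* in NK cells 0.017, *Fcgrt* in fibroblasts -0.24 and the Mo-DC ratio -0.18. With limma-voom on recovered UMIs, *Fcgr3* in monocytes was 0.030 and *Fcgr4* 0.14. With hearts of at least 10 cells of the type, *Fcgr3* (0.13), *Fcgr4* (0.10) and *Fcer1g* (0.070) in monocytes and *Fcgr4* in Mo-DCs (-0.30) reversed. Without cells of neutrophil markers, *Fcgr4* in monocytes was 0.0026.

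Leaving out each heart in turn gave ranges that crossed 0. In macrophages these were -0.083 (without IL-33- replicate 3) to 0.44 for *Fcgr1* and -0.072 (without IL-33- replicate 2) to 0.28 for *Fcgr2b*. In monocytes they were -0.72 to 0.082 (without IL-33- replicate 2) for *Fcgr3*, -0.32 to 0.23 (without IL-33- replicate 1) for *Fcgr4* and -0.26 (without IL-33- replicate 3) to 0.48 for *Fcgr2b*. They were -0.33 to 0.17 (without IL-33+ replicate 1) for *Fcgr3* in NK cells and -0.13 (without IL-33+ replicate 1) to 1.00 for *Fcgrt* in cDCs. The ratio ran from -1.07 (without IL-33- replicate 2) to 0.99 in Mo-DCs and from -1.24 to 0.21 (without IL-33+ replicate 2) in cDCs. The *Fcgr1* share in macrophages ran from -0.16 (without IL-33+ replicate 3) to 4.18 percentage points. Macrophages minus monocytes ran from -0.54 (without IL-33- replicate 2) to 0.54 for *Fcgr2b*, and from -0.50 to 0.14 (without IL-33- replicate 2) for *Fcgrt*. With hearts of at least 10 monocytes, chosen after the data were seen, that of *Fcgr2b* was -0.98. Calls among pathway genes ran from 0 to 2 (*Clec4e* and *Inpp5d* in unconventional T cells, both lower in IL-33+, without IL-33+ replicate 1), with 1 without IL-33+ replicate 3 (*Clec4e*). A pseudocount of 50 called *Clec4e* there, and no filter called *Clec4e* there and *Ighm* in cDCs.

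The graft comparisons rest on 3 hearts per graft, with 4 to 21 cells of a myeloid type in the second heart of each graft. The smallest difference that can be found with these hearts was not tested, and the intervals given are not limits of detection. No paired analysis was possible because the hashtag labels tie no IL-33+ heart to an IL-33- heart. Intervals on shares and UMIs cover counting error only, and all hearts were captured in 1 pool.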
